A study of Mus musculus with 4 samples.

Results

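The miR-17-92 and miR-106b-25 clusters are paralogous groups of microRNA (miRNA) genes, each made as 1 precursor RNA that is cut into several hairpins. Their 9 mature miRNAs are mmu-miR-17, mmu-miR-18a, mmu-miR-19a, mmu-miR-20a, mmu-miR-19b and mmu-miR-92a from the former cluster and mmu-miR-106b, mmu-miR-93 and mmu-miR-25 from the latter, written below without the species prefix. They were taken by name, together with the star arms of the same hairpins, from the reads that the deposited tables assign to 1 miRNA only. This gave 18 arms (9 mature and 9 star) of the 628 arms in the tables. Small RNA had been sequenced from confluent NIH-3T3 cells, a fibroblast line long established from mouse embryos, in 2 untreated control libraries and 2 libraries from cells given 500 nM thapsigargin for 24 h. Thapsigargin blocks the SERCA pump that fills the endoplasmic reticulum (ER) with calcium, and so causes ER stress. The controls are recorded at 0 nM and 0 h. If they were collected at that time, thapsigargin and 24 h more in culture cannot be told apart. No genetic change is given for any group. Whether the 2 replicates of a group came from separate cultures is not stated in the labels, so a p-value measures only the spread between these libraries, which may be technical.

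Each miRNA hairpin is cut to a duplex. The arm that is loaded into Argonaute is called the mature arm, and its partner, which is mostly degraded, the star arm. Bases 2 to 8 of the mature arm, the seed, pair with target messenger RNAs, so miRNAs with the same seed share most of their targets. In mouse and human cells the miR-17-92 precursor is transcribed under Myc and E2F and is known for promoting proliferation and for repressing Cdkn1a and the proapoptotic Bcl2l11 (Bim). The miR-106b-25 cluster lies in Mcm7, a gene of the replicative helicase, and has been described in mouse fibroblasts as repressed through the PERK branch of the ER stress response. The question was how the members of each transcript, of each seed and of each hairpin stood to each other, and whether they differed between control and thapsigargin libraries.

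The mature sequences are shown because the seed, in capitals, sorts the 9 members into 4 groups that cut across the clusters. They are RefSeq sequences of GRCm38.p6, written 5′ to 3′, as are the other annotated arms below.
miR-17: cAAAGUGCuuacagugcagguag
miR-20a: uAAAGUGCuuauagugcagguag
miR-106b: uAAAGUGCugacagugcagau
miR-93: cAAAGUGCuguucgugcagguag
miR-18a: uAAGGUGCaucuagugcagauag
miR-19a: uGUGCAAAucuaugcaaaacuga
miR-19b: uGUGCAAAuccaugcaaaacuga
miR-92a: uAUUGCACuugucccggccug
miR-25: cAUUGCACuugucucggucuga
The seed AAAGUGC was shared by miR-17, miR-20a, miR-106b and miR-93. The seed of miR-18a differed from it, the seed GUGCAAA was shared by miR-19a and miR-19b, and the seed AUUGCAC by miR-92a and miR-25. Counted from 1 at the 5′ end, miR-17 and miR-20a had 21 of 23 bases in common (C1U and C12U), and miR-19a and miR-19b had 22 of 23 (U11C). miR-92a and miR-25 had 18 of 21 bases in common (U1C, C14U and C18U). The members with the miR-17 or miR-18a seed were all on the 5p side of their hairpins, and those with the miR-19 or miR-92 seed all on the 3p side, so side and seed cannot be told apart here.

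In GRCm38.p6 the hairpins of miR-17-92 lay at chr14:115043671-115044506 on the + strand, a span of 836 bp inside an exon of the long noncoding RNA gene Mir17hg. Those of miR-106b-25 lay at chr5:138165321-138165818 on the - strand, a span of 498 bp inside Mcm7. The Mir106b hairpin overlapped no annotated Mcm7 exon, while Mir93 and Mir25 each overlapped an exon of some Mcm7 transcript. The mature arms of miR-19b and miR-92a can also come from a locus on chromosome X (Mir19b-2 and Mir92-2), part of the miR-106a-363 cluster. Reads of the arms that only this paralogue makes were at or near 0. miR-106a had 1 read in all, miR-18b had 2 and miR-20b had 1, and miR-363, miR-19b-2* and miR-92a-2* each had 0 of 15747352 arm reads, which allows a share of up to 1.91e-05% (3 counts). All intervals and limits on counts given here cover counting error only.

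Values of the 4 libraries are given in the order control replicate 1, control replicate 2, thapsigargin replicate 1 and thapsigargin replicate 2, and libraries of cells given thapsigargin are called treated. The reads assigned to an arm numbered 3857002, 3633414, 5570971 and 2685965. The 18 arms held 24366, 14587, 36097 and 14817 of them, or 0.632%, 0.401%, 0.648% and 0.552%. One arm outside the clusters, miR-10b, took 35.7% to 56.6% of the arm reads and was higher in both replicate 2 libraries. The 5 fibroblast and mesenchymal markers were all detected and made up 49.1% to 64.2% of arm reads. miR-10b is 1 of these markers, and nearly all other reads of the list were of miR-143 (492853, 244523, 912234 and 287205). Markers of embryonic stem cells (0 to 7 reads per library), epithelium (2 to 16), blood (2 to 11), muscle (0 to 2) and liver (0 to 1) were nearly absent, as was the neural marker miR-124 (1 to 2), while the other neural marker, miR-9, had 819 to 4072 reads. Levels are given as CPM, read counts scaled to library size, here with edgeR's TMM factors. How evenly the library preparation captured different arms was not tested, so the order and the shares of arms below are of reads and not of molecules. Fewer cells and less of an miRNA per cell cannot be told apart in such libraries.

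miR-92a and miR-25, the members with the miR-92 seed, were the most abundant of each cluster, and miR-18a and miR-19a the least. Over the 4 libraries the mean level was 2371 CPM for miR-92a, 2192 CPM for miR-25, 571 CPM for miR-93, 156 CPM for miR-19b, 98.1 CPM for miR-17, 73.7 CPM for miR-106b, 67.3 CPM for miR-20a, 18.7 CPM for miR-18a and 16.2 CPM for miR-19a. miR-25 stood above miR-93, miR-93 above miR-19b, miR-19b above miR-17, and miR-20a above miR-18a in all 4 libraries, with no overlap of their ranges. The ranges of miR-92a and miR-25, of miR-17 and miR-106b, of miR-106b and miR-20a, and of miR-18a and miR-19a overlapped, so these neighbours in the order did not differ beyond their spread. Members of 1 transcript spanned from 11.3 to 2852 CPM in miR-17-92 and from 36.7 to 3798 CPM in miR-106b-25. Among 434 mature arms, miR-92a ranked 24 to 30 and miR-25 ranked 21 to 34, while miR-18a ranked 138 to 154 and miR-19a 131 to 157.

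**Figure D1:**
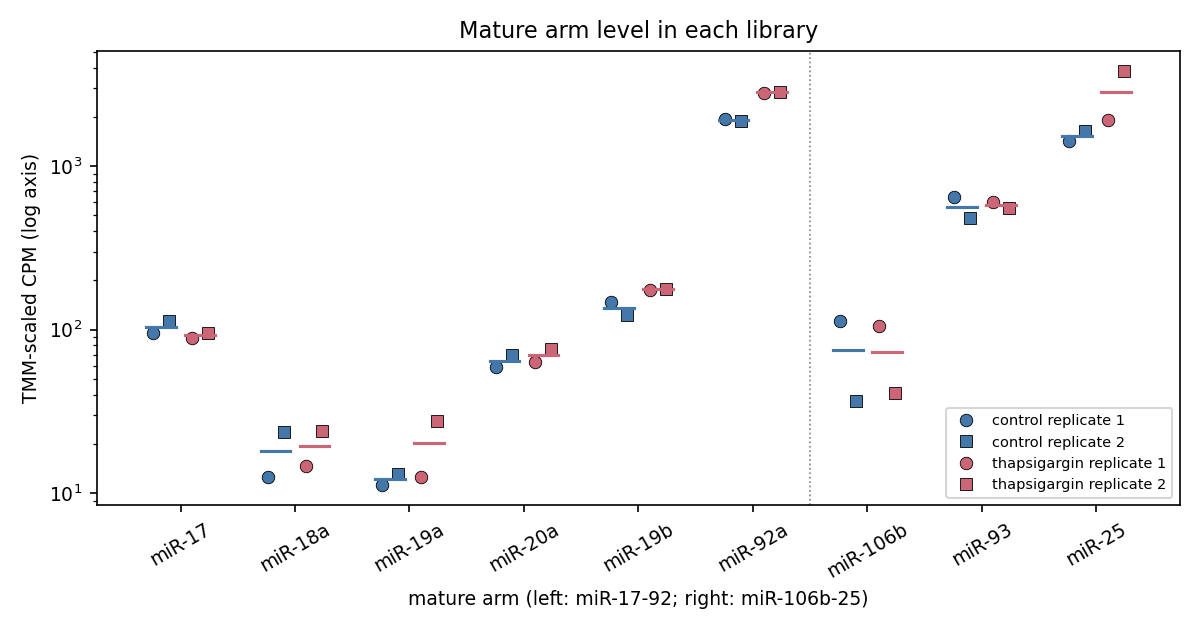
Level of each mature arm in each of the 4 libraries (TMM-scaled CPM, log axis), with circles for replicate 1, squares for replicate 2 and a line at the mean of each group. The 2 thapsigargin libraries lie above both controls for miR-19b, miR-92a and miR-25, and for miR-106b the replicate 1 libraries lie above the replicate 2 libraries in both groups.

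No member differed between the groups by the test. By the quasi-likelihood test of edgeR, adjusted after Benjamini and Hochberg at 0.05, 0 of 310 tested arms were called (0.0%). Among the 310, 12 had an unadjusted p under 0.05. DESeq2, run on all 628 arms without edgeR's filter on low counts, likewise called 0, with 18 unadjusted. Of the 18 arms, 15 passed the filter on low counts and were tested, 9 mature and 6 star. miR-19a*, miR-19b-1* and miR-93* did not pass it. Of the 15 tested, 10 had a log2 fold change above 0, with a median of 0.11, against 155 of 310 and a median of -0.01 over all tested arms. These counts are a description, since passing the filter depends on the level. With libraries scaled by total arm reads alone, the median over all arms moved to -0.36, so the log2 fold changes below are relative to the TMM scale.

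miR-92a, which targets integrin and proapoptotic transcripts through the miR-92 seed, was at 1938 and 1889 CPM in control replicates 1 and 2 and at 2804 and 2852 CPM in thapsigargin replicates 1 and 2. The thapsigargin libraries were both higher, and the libraries of a group differed little, with means of 1913 ± 34.2 and 2828 ± 33.9 CPM (SD, n = 2). Its log2 fold change was 0.56 (SE 0.44), with an edgeR adjusted p of 0.987, and leaving out each library in turn gave 0.51 to 0.58. Its standard error was derived from the log2 fold change and the F statistic of the quasi-likelihood test, which draws on the spread of all arms. Given apart from that, the common dispersion over all arms was a coefficient of variation of 0.447. With total read scaling the log2 fold change was 0.22 and the groups overlapped.

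miR-25, the miR-92 seed member of the other cluster and a repressor of Bcl2l11, was at 1428 and 1637 CPM untreated and 1904 and 3798 CPM treated. Both thapsigargin libraries were higher than both controls, and replicate 2 stood far above replicate 1. The log2 fold change was 0.90 (SE 0.50), with an edgeR adjusted p of 0.892. Without thapsigargin replicate 2 it was 0.33, the lowest value on leaving out a library, and the highest was 1.27. The groups stayed apart with total read scaling, where the log2 fold change was 0.47.

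miR-19b, which shares its seed with miR-19a, was at 147 and 123 CPM untreated and 175 and 178 CPM treated. The groups did not overlap on this scale, and they did with total read scaling, where the log2 fold change was 0.02 against 0.39 (SE 0.49) on the TMM scale. Its sister miR-19a rested on 61, 43, 78 and 53 reads, at 11.3, 13.2, 12.6 and 27.7 CPM. Its groups overlapped, thapsigargin replicate 2 stood alone on the high side, and the log2 fold change of 0.70 (SE 0.60) was 0.06 without that library.

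The other miR-17 and miR-18a seed members had log2 fold changes near 0. miR-17, which with miR-20a represses Cdkn1a and E2f1, was at 94.97 and 113 CPM untreated and 89.1 and 95.6 CPM treated, a log2 fold change of -0.17 (SE 0.49). miR-20a was at 59.3 and 70.0 CPM against 63.5 and 76.3 CPM, with 0.11 (SE 0.49). In each of these miRNAs the groups overlapped and replicate 2 was the higher library of both groups. miR-93, which represses Cdkn1a in human cells, was at 647 and 482 CPM against 603 and 552 CPM, with 0.03 (SE 0.46). miR-18a, the member with a seed of its own and a repressor of Ctgf, was at 12.6 and 23.5 CPM against 14.7 and 24.0 CPM, with 0.09 (SE 0.58). These groups overlapped too. The sign of the log2 fold change turned with the scaling for miR-18a, miR-20a and miR-93, at -0.21, -0.23 and -0.34 with total read scaling.

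miR-106b, which shares the targets of miR-93, differed by replicate number more than by treatment. It had 609 and 120 reads untreated and 648 and 78 treated, or 113, 36.7, 105 and 40.8 CPM. Both replicate 1 libraries were higher, 3.07 times within the controls and 2.57 times within the thapsigargin group, and the log2 fold change between the groups was -0.03 (SE 0.71). Leaving out each library in turn moved it from -0.94 to 1.0. miR-93, which has the same seed and comes from the same transcript, showed a smaller gap in the same direction, and reads of miR-93 per read of miR-106b were 5.75 and 5.76 in the replicate 1 libraries of control and thapsigargin, and 13.1 and 13.5 in the replicate 2 libraries. What set the replicates apart was not tested.

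On the TMM scale both thapsigargin libraries were above both controls for 4 of the 15 tested arms, miR-92a, miR-25, miR-19b and miR-92a-1*, and below both for 0. miR-92a-1* passed the filter only through the thapsigargin libraries, so it had to be higher there. Over all tested arms 54 of 310 (17.4%) were above and 50 of 310 (16.1%) below. With total read scaling 2 of the 15 were above (miR-25 and miR-92a-1*) and 3 below (miR-17, miR-17* and miR-18a), against 21 of 310 (6.77%) above and 77 of 310 (24.8%) below. These counts depend on the scaling. The mature arms from the 3p side (miR-19a, miR-19b, miR-92a and miR-25) all had log2 fold changes above 0, with a median of 0.63 and a range of 0.39 to 0.90. Those from the 5p side had a median of 0.03 and a range of -0.17 to 0.11, with 3 of 5 above 0. Over all tested mature arms with a RefSeq side, the median was 0.04 for 74 arms of the 3p side and 0.03 for 91 arms of the 5p side. None of these 9 values passed the test. With total read scaling the 3p members were at 0.02 for miR-19b, 0.22 for miR-92a, 0.28 for miR-19a and 0.47 for miR-25, all above the median of -0.36 over all arms on that scale. Of the 5p members, miR-18a (-0.21), miR-20a (-0.23) and miR-93 (-0.34) were also above that median. miR-106b (-0.39) and miR-17 (-0.49) were below it.

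**Figure D2:**
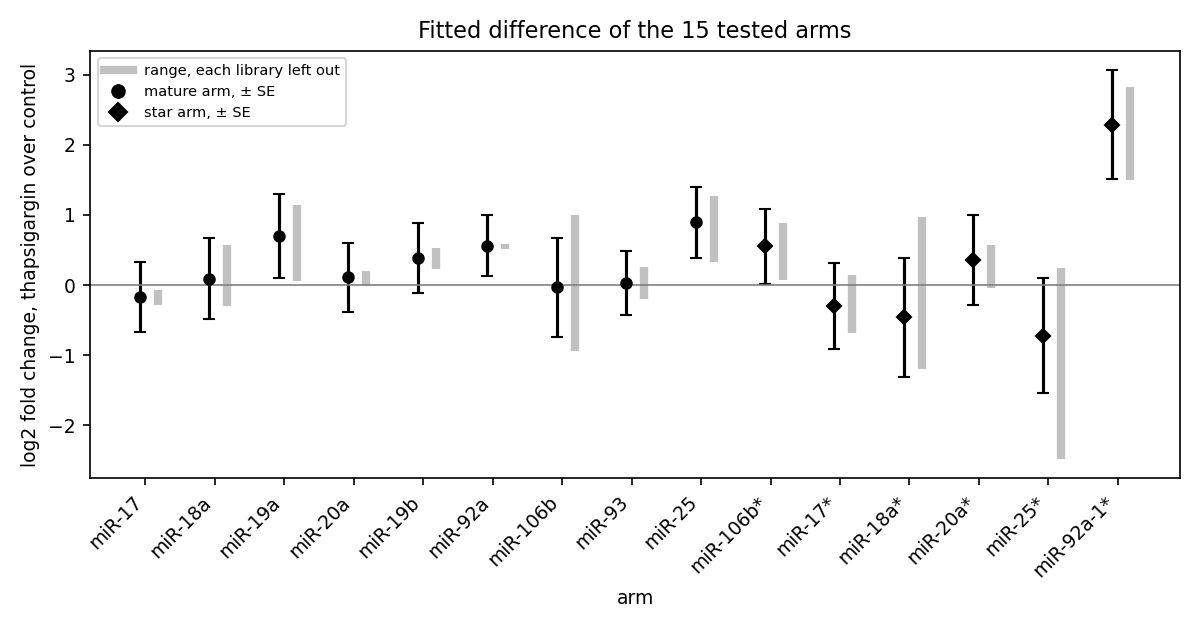
Log2 fold change (thapsigargin over control, TMM scale) of the 15 tested arms, with circles for mature and diamonds for star arms and bars for 1 standard error; the grey bar is the range when each of the 4 libraries is left out. miR-92a has the narrow range of 0.51 to 0.58, and miR-106b runs from -0.94 to 1.0. Farthest from 0, at 2.29, lies miR-92a-1*, which passed the filter only through the thapsigargin libraries.

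In the authors' deposited table of 324 miRNAs, 2 had an adjusted p under 0.05, neither of them a member. In the authors' deposited table the log2 fold changes were 0.80 for miR-25, 0.60 for miR-19a, 0.49 for miR-92a and 0.31 for miR-19b, and from -0.24 (miR-17) to 0.04 (miR-20a) for the other 5 members.

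Summed over its mature arms, miR-17-92 stood at 2263 and 2232 CPM untreated and 3160 and 3254 CPM treated. Both thapsigargin libraries were higher, and the difference of the mean log2 CPM was 0.51. With total read scaling it was 0.18 and the groups overlapped. Without miR-92a the sum was 325 and 343 CPM against 355 and 402 CPM. miR-106b-25 stood at 2187 and 2156 CPM against 2611 and 4391 CPM, a log2 difference of 0.64 that was 0.27 without thapsigargin replicate 2 and 1.02 without replicate 1. With total read scaling it was 0.30 and these groups overlapped too. Without miR-25 its sum was 760 and 519 CPM against 708 and 593 CPM, and the groups overlapped. By seed, the summed miR-92 seed members were at 3365 and 3526 CPM against 4708 and 6651 CPM, the miR-19 seed at 158 and 136 CPM against 188 and 205.9 CPM, and the miR-17 seed at 914 and 702 CPM against 860 and 765 CPM. The groups lay apart for the miR-92 and miR-19 seeds and overlapped for the miR-17 seed. With total read scaling they lay apart for the miR-92 seed, with control replicate 1 (4722 CPM of all arm reads) close under thapsigargin replicate 2 (4738 CPM), and overlapped for the miR-19 seed. Outside the clusters, miR-92b, which has the miR-92 seed, was at 94.97 and 60.6 CPM against 97.7 and 79.4 CPM, and miR-32, with the same seed, had 4 to 47 reads per library.

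Within a cluster, shares of the reads do not depend on library scaling. miR-92a made up 85.6% and 84.6% of the miR-17-92 mature reads untreated and 88.8% and 87.7% treated (85.1 ± 0.699% and 88.2 ± 0.785%, SD, n = 2). Both thapsigargin libraries were higher. miR-17 made up 4.2% and 5.06% against 2.82% and 2.94%, and miR-20a 2.62% and 3.14% against 2.01% and 2.34%, each lower in both thapsigargin libraries. For these 3 shares the exact two-sided permutation test gave p = 0.333, the smallest that 2 against 2 libraries allow, and 0.75 after adjustment over the 9 shares tested. miR-19b (5.48% to 6.50%), miR-18a (0.465% to 1.06%) and miR-19a (0.399% to 0.851%) overlapped between the groups. Put as reads of miR-92a per read of miR-17, the ratio was 20.4 and 16.7 untreated and 31.5 and 29.8 treated, while per read of miR-19b it was 13.2 and 15.3 against 16 in both thapsigargin libraries. miR-17 per read of miR-20a, a ratio of 2 same-seed arms of the same transcript, was 1.60 and 1.61 against 1.4 and 1.25. The thapsigargin libraries were apart from the controls in each of these ratios. They were also apart in miR-17 per read of miR-19b (0.646 and 0.916 against 0.509 and 0.537). Each had the same smallest exact permutation p of 0.333. These ratios reuse the reads of the shares above and are no separate evidence. The groups overlapped for miR-17 per read of miR-18a (7.56 and 4.79 against 6.07 and 3.98). They also did for miR-19b per read of miR-19a (13.0 and 9.37 against 13.9 and 6.43).

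In the miR-106b-25 cluster the groups overlapped for every member. miR-25 took 65.3% and 75.9% of the mature reads untreated and 72.9% and 86.5% treated, miR-93 took 29.6% and 22.4% against 23.1% and 12.6%, and miR-106b 5.14% and 1.70% against 4.01% and 0.928%. Replicate 2 had the higher miR-25 share and the lower miR-93 and miR-106b shares in both groups. The 2 clusters gave nearly equal parts of the member reads: miR-17-92 held 50.8% and 50.9% untreated and 54.8% and 42.6% treated. Over both clusters the miR-92 seed held 75.6% and 80.4% of the mature reads untreated and 81.6% and 87.0% treated, and the miR-17 seed 20.5% and 16% against 14.9% and 10%. The groups did not overlap for either seed, with the same smallest exact permutation p of 0.333.

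**Figure D3:**
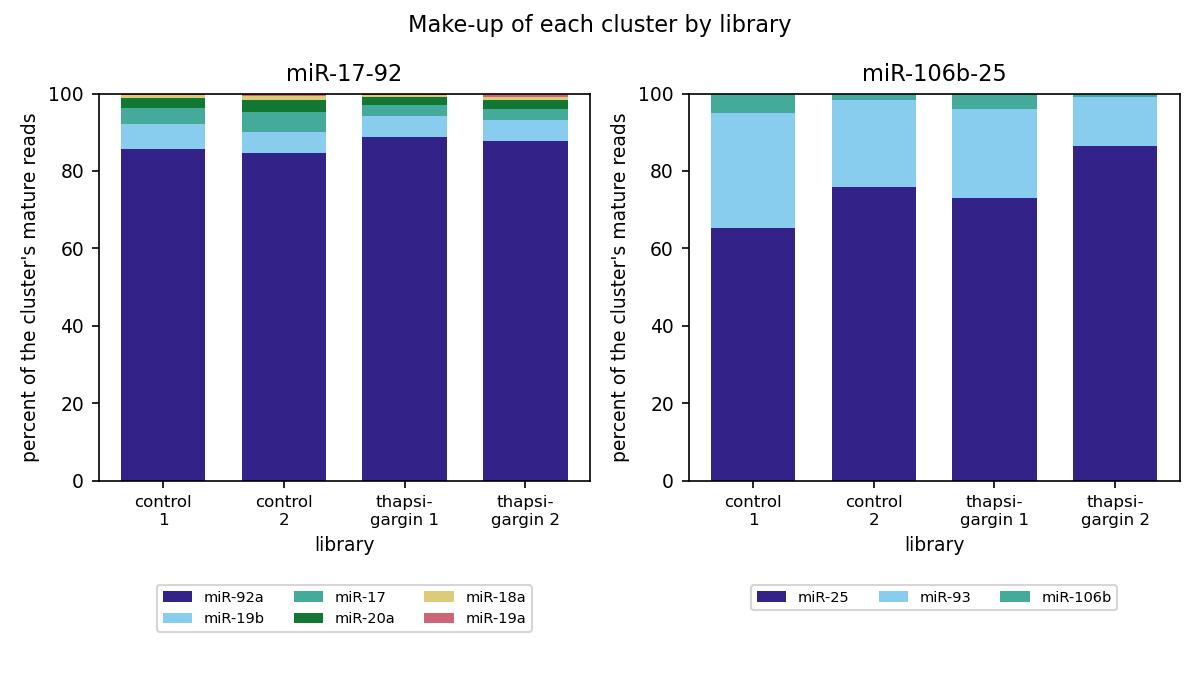
Percent of each cluster's mature reads held by each member, by library, with miR-17-92 on the left and miR-106b-25 on the right. miR-92a holds 84.6% to 88.8% of miR-17-92 in all 4 libraries, and miR-25 varies from 65.3% to 86.5% of miR-106b-25.

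The same question was put to the fitted counts with edgeR's diffSpliceDGE, which sets the change of each mature arm against that of its whole cluster, the arm itself included. An arm that holds most of the cluster's reads, as miR-92a and miR-25 do, is therefore near 0 by construction. Over 30 clusters of neighbouring miRNA genes (78 arms), 0 were called (0.0%), with 4 arms at an unadjusted p under 0.05 and a smallest adjusted p of 0.0797. Relative to its whole cluster, miR-17 was at -0.68 on the log2 scale, miR-20a at -0.40 and miR-18a at -0.42, while miR-92a was at 0.05, miR-19a at 0.19 and miR-19b at -0.13. In miR-106b-25, miR-106b was at -0.72, miR-93 at -0.66 and miR-25 at 0.21. All 5 members of the 5p side were below 0 in this ratio, and none of the 9 passed the test. Each ratio is nearly the arm's own log2 fold change less a value common to its cluster. It therefore repeats the contrast of sides above and is no separate evidence for it.

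The star arms held 1.16%, 1.64%, 1.0% and 1.27% of the member reads, against 2.75%, 1.77%, 2.32% and 0.935% over all arms. Most star reads over all arms were of miR-140*, outside the clusters, with 83395, 50395, 102170 and 16073 reads. The comparison with all arms therefore rests largely on that arm. The members' star share of a hairpin's arm reads ran from under 1% for miR-92a, miR-25, miR-93 and miR-19b to 20.6% to 59.2% for miR-106b. Among the tested star arms of the miR-17-92 hairpins, those on the 3p side were the more frequent by share. They were at 7.05% to 10.4% for miR-17*, 25.3% to 45.8% for miR-18a* and 2.67% to 4.61% for miR-20a*. In none of these did the groups stand apart. The untested miR-19a* was at 3.17%, 0.0%, 0.0% and 5.36%, above miR-20a* in thapsigargin replicate 2. Reads were few for the star arms left untested, with 2, 0, 0 and 3 for miR-19a*, 4, 1, 7 and 1 for miR-19b-1*, and 15, 5, 12 and 3 for miR-93*. The 2 star arms that the results turn on are shown with bases 2 to 8 in capitals.
miR-92a-1*: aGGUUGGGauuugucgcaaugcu
miR-106b*: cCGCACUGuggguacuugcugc

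miR-92a-1*, the partner of the most abundant member, had 7 and 6 reads untreated and 27 and 22 treated, or 1.29 and 1.83 CPM against 4.36 and 11.5 CPM. Both thapsigargin libraries were higher, and the arm passed the filter only through them, since both controls had fewer than 10 reads. The fold changes, intervals and p-values that follow are therefore a description and no support for a difference. The log2 fold change of 2.29 (SE 0.78) had an edgeR unadjusted p of 0.0168 and an adjusted p of 0.892, and it was 1.5 to 2.83 when each library was left out. The ratio of the pooled reads, each per TMM-scaled library size, was 4.04 with a counting interval of 2.16 to 8.11. Per hairpin, the star arm was 0.0667% (exact 95% interval 0.0268% to 0.137%) and 0.0970% (0.0356% to 0.211%) of the reads untreated, and 0.155% (0.102% to 0.226%) and 0.401% (0.252% to 0.607%) with thapsigargin. The counting intervals of control replicate 2 and thapsigargin replicate 1 overlapped. Against its hairpin the star arm was 1.72 higher on the log2 scale, with a diffSpliceDGE unadjusted p of 0.0377 and an adjusted p of 0.673, and 0 of 92 hairpins (0.0%) were called, with 12 of 187 arms at an unadjusted p under 0.05.

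On the TMM scale miR-92a-1* was the only tested star arm whose groups stood apart, and the filter had selected it through the thapsigargin libraries. With total read scaling miR-17* was also apart, lower in both thapsigargin libraries. miR-106b* was at 29.2 and 32.7 CPM against 32.3 and 59.1 CPM, a log2 fold change of 0.55 (SE 0.53). miR-25* had 23 and 5 reads against 16 and 1, with -0.72 (SE 0.82), and miR-18a* had 23 and 65 against 33 and 24, with -0.46 (SE 0.85). miR-17* (39, 43, 47 and 17 reads) and miR-20a* (11, 7, 19 and 4 reads) had log2 fold changes of -0.30 and 0.35. Leaving out a library turned the sign for miR-17*, miR-18a*, miR-20a* and miR-25*. No hairpin of the clusters had a called arm ratio.

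The star arm of miR-106b was 20.6% of the arm reads in control replicate 1, 47.1% in control replicate 2, 23.6% in thapsigargin replicate 1 and 59.2% in thapsigargin replicate 2. The replicate 2 libraries were higher in both groups. Between the control libraries the level of miR-106b differed (113 and 36.7 CPM) and that of miR-106b* was close (29.2 and 32.7 CPM). In thapsigargin replicate 2 the star arm had more reads than the mature arm, 113 against 78. The deposited hairpin tables held further reads of the star arm that begin upstream of its annotated start. The commonest was the read shown first in control replicate 1 (49 reads) and the other in control replicate 2 (21 reads), thapsigargin replicate 1 (92) and thapsigargin replicate 2 (17), in DNA letters with the bases upstream of the annotated start in capitals.
control replicate 1: TAccgcactgtgggtacttgct
other libraries: Accgcactgtgggtacttgct
These reads numbered 57, 22, 95 and 20, or 26.5%, 17.1%, 32.2% and 15% of the reads of the arm in both tables. With them, the star share was 26.1%, 51.8%, 31.3% and 63.0%, and the replicate 2 libraries were again the higher ones.

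**Figure D4:**
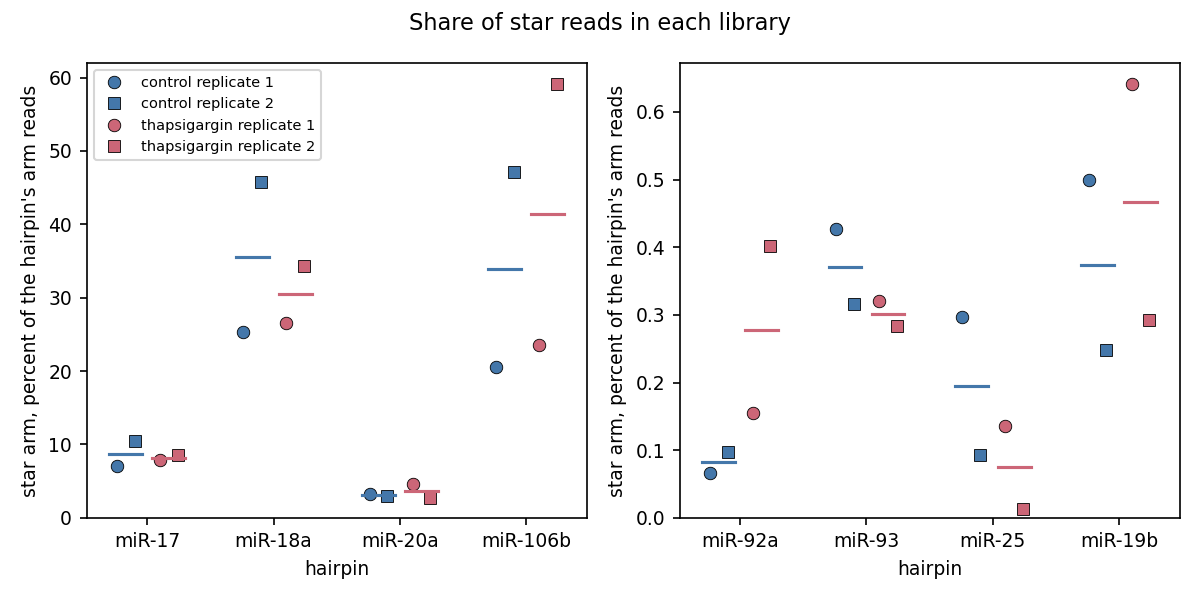
Star arm reads as a percent of all arm reads of the hairpin, in each library, with circles for replicate 1, squares for replicate 2 and lines at group means; 8 hairpins are shown, without miR-19a, and the right panel has a smaller scale. The miR-92a hairpin is the one in which both thapsigargin libraries (0.155% and 0.401%) are above both controls, and its star arm passed the filter only through them. For miR-106b both replicate 2 libraries (47.1% and 59.2%) are above both replicate 1 libraries.

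The seed depends on where a read begins. In control replicate 1, 99.1% of the members' mature reads began at annotated base 1. In the other 3 libraries 98.8% to 99.3% began at base 2, and 0.0571% to 0.0854% at base 1. The commonest reads of miR-25, with the annotated seed in capitals, show the difference.
control replicate 1: cATTGCACttgtctcggtctga
other libraries: ATTGCACttgtctcggtctga
The former read had 4839 copies in control replicate 1, and the latter 4034, 7256 and 5438 in control replicate 2 and thapsigargin replicates 1 and 2. The shift was not particular to the clusters: in 78 other mature arms with no library under 100 reads, the median share of reads beginning at base 1 was 99.3% in control replicate 1 and 0.0248% to 0.0546% in the others. It divided 1 control library from the 3 others and so followed neither the treatment nor the replicate number. Once control replicate 1 had been shortened by that base, no member's log2 fold change turned its sign.

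The 3′ ends differed between members. miR-92a reads mostly ran past the annotated last base, in 80.6% and 81.5% of reads untreated and 81.6% and 73.8% treated, and 15%, 16%, 15.4% and 13.1% carried an added A that the Mir92-1 hairpin does not encode. The base after the annotated end is T in the Mir92-1 hairpin of miR-17-92 and A in Mir92-2 of chromosome X. T followed in 97.9%, 98.0%, 98.3% and 97.8% of the reads that ran on, and A in 1.70%, 1.59%, 1.14% and 1.45% (exact 95% intervals between 0.973% and 1.99%). An A there can also be an added base, and the 2 sources cannot be told apart. miR-93 reads ended 2 or more bases short in 49.1% and 44.3% of reads untreated and 48.5% and 42.2% treated.

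miR-25 reads ended at the annotated base in 68.5% and 79.8% of reads untreated and 67.7% and 78.9% treated, and 2 or more bases short in 25.1% and 15.3% against 25.3% and 16.5%. Both replicate 2 libraries had more reads at the annotated end and fewer short ones, in each group by about the same amount. miR-17 showed the same order, with 48.7% and 59.8% against 49.0% and 57.5% at the annotated end. miR-19b mostly ended 1 base short, in 65.0% and 65.9% of reads untreated and 67.5% and 79.5% treated, and miR-106b ran past the annotated end in 43.1% and 33.6% against 30.4% and 20.3%. For these last 2 shares the groups did not overlap, and in each the 2 thapsigargin libraries stood farther apart than the nearest libraries of the groups did. The groups were also apart for miR-106b at the annotated end (44.9% and 49.6% against 56.4% and 60.8%). So they were for miR-93 past it (11.4% and 10.3% against 13.4% and 12.9%). In both, the thapsigargin libraries stood closer together than that. Also apart were miR-19b at the annotated end, and miR-19a there and 1 base short. Each had an exact permutation p of 0.333.

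**Figure D5:**
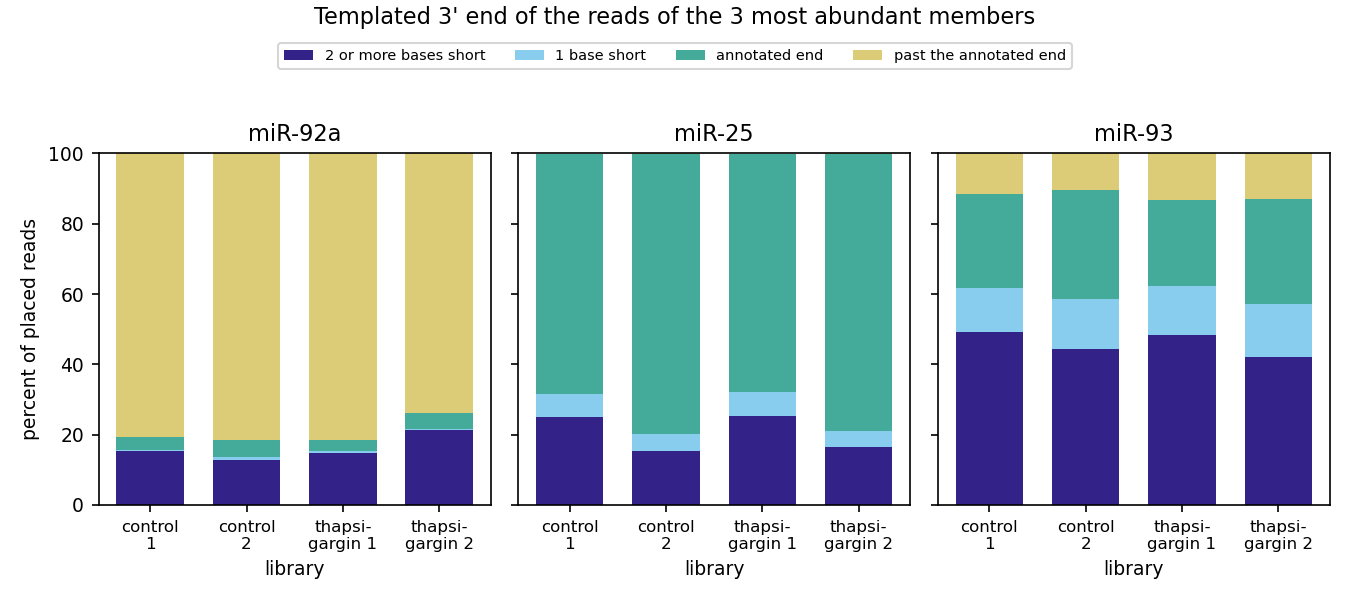
Percent of placed reads of miR-92a, miR-25 and miR-93 that end 2 or more bases short of, 1 base short of, at or past the annotated 3′ end, by library. miR-92a runs past the end in 73.8% to 81.6% of reads, and miR-25 ends at the annotated base in 67.7% to 79.8%, higher in both replicate 2 libraries.

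Of 108 other arms with a mean of at least 100 CPM, those whose log2 levels over the 4 libraries lay closest to the miR-17-92 sum, by Euclidean distance after centring, were miR-192 (0.205), miR-210 (0.352) and miR-532-5p (0.377). miR-192 was at 516 and 585 CPM untreated and 695 and 720 CPM treated. Closest to the miR-106b-25 sum were miR-145* (0.140), miR-340-5p (0.169) and miR-21 (0.190). Each of these 3 was highest in thapsigargin replicate 2, as the miR-106b-25 sum was, and miR-21 was there at 18203 CPM against 9299 to 10263 CPM in the other libraries.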

How the data were processed

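Per the labels' protocols, libraries came from a TruSeq small RNA kit. The submitters' processing notes name CASAVA 1.8.1, cutadapt, Bowtie, DESeq 1.4.1 and the mouse build mm9. The files hold no coordinates, and those given here are RefSeq's in GRCm38.p6, which also gave the sequences. Host genes are GENCODE's on that assembly.

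The authors deposited whole-number counts of each distinct read per miRNA, and a percent of all counted reads that was not used. In the authors' deposited comparison the columns used were log2 fold change and p-value, per the file headers, and its tool is not stated there. Counts of reads that match 1 miRNA were summed here per arm (628 arms). The mature summary of thapsigargin replicate 2 was not used. In the other summaries of arms all member names matched the read tables.

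Counts were tested in edgeR 4.0.16 (R 4.3.3; two-sided quasi-likelihood test, TMM, trended dispersion, robust, filterByExpr with a minimum count of 10, Benjamini-Hochberg at 0.05), which kept 310 arms. TMM factors ran from 0.712 (thapsigargin replicate 2) to 1.4 (control replicate 1). Arm ratios within hairpins and within clusters (miRNA genes within 10 kb) used diffSpliceDGE, fitted over all arms, and shares used exact permutation tests over libraries. Exact intervals used the beta distribution in scipy 1.17.1. Reads were placed on RefSeq hairpins by exact match, with up to 3 unmatched bases at the 3′ end. The scripts were tested on simulated data. For the count tests these held larger changes than the members and less spread than the libraries here, so they do not show what could be detected.

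All 9 members and their star arms were named by rule, the paralogues of the same seeds by their reads, and the 3 most similar arms by distance. The members, lists and tests were chosen with earlier results of these data known. Alternatives were other scalings, no filter, DESeq2 1.42.0, the replicate number as a block, each library left out, ambiguous reads added, miR-10b left out, and control replicate 1 shortened by base 1, with reads then under 18 nt dropped (56287 reads, 1.42%). Total read scaling of the sums and of the counts of arms apart from the controls was added after seeing the data. Depth was 2685965 to 5570971 arm reads per library, and intervals are exact at 95%.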

Additional observations from a re-analysis of the deposited data

Results flagged for a closer look

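Reads that match more than 1 miRNA were left out of the counts, and those that name miR-92a or miR-25 were more frequent in both thapsigargin libraries than in either control. For miR-92a, control replicates 1 and 2 held 2 and 12 such reads and thapsigargin replicates 1 and 2 held 24 and 12, or 0.370, 3.67, 3.88 and 6.27 CPM, with a mean of 5.07 CPM in the thapsigargin libraries. Of these, 0, 9, 21 and 12 name both miR-92a and miR-25 and are all such reads of miR-25, at 0.00, 2.75, 3.39 and 6.27 CPM with a mean of 4.83 CPM in the treated libraries, so the values of the 2 miRNAs rest largely on the same reads. The annotated arms of miR-92a and miR-25 differ at base 1 (U1C), which the reads of control replicate 1 hold and those of the other libraries lack, and control replicate 1 was the lowest library for both. The difference between the groups was not tested. These reads are few beside the 5458 to 17367 assigned reads of miR-92a and the 5353 to 11788 of miR-25 in each library. Adding them to the members moved the log2 fold changes of miR-92a and miR-25 to 0.56 and 0.90, the values they had without them.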

How the results depend on the processing

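No member arm was called under any alternative. Over all arms, 3 were called without a filter and 0 to 3 when each library was left out, 3 of them without control replicate 2. Arm ratios within hairpins gave 0 to 5 calls on leaving out a library (5 without control replicate 2, 2 without thapsigargin replicate 1) and ratios within clusters 0 to 2 (1 and 2 without the same libraries). No member was among the calls. Replicates of the groups share only a number, and over 310 arms the deviations of same-numbered libraries from their group means had a correlation of 0.568. With the replicate number as a block, 0 arms, 5 hairpins and 1 cluster were called, none of them of the members, and the log2 fold change of miR-106b was 0.017. The cause was not tested for any of these. The log2 difference of the summed miR-17-92 arms was 0.18 with total read scaling against 0.51, and 0.49 to 0.53 on leaving out a library. Signs also turned with total read scaling for miR-18a (-0.21), miR-20a (-0.23) and miR-93 (-0.34), and for miR-93 with RLE scaling (-0.0055) and DESeq2 (-0.0151). On leaving out each library, miR-106b ran from -0.94 to 1.0, miR-17* from -0.68 to 0.15, miR-18a from -0.30 to 0.57, miR-18a* from -1.20 to 0.97, miR-20a from -0.0087 to 0.20, miR-20a* from -0.0417 to 0.57, miR-25* from -2.48 to 0.24 and miR-93 from -0.20 to 0.26. Under the alternatives, the other 159 log2 fold changes of members kept their direction. Differences of shares kept theirs in 52 of 52 values with shortened or ambiguous reads and turned sign in 17 of 104 values with a library left out, among them the miR-18a share (0.047 percentage points without control replicate 2) and the miR-19a share (-0.145 without thapsigargin replicate 2) of miR-17-92. With 2 libraries per group and these counts, star arms under 30 reads per library limit what could be seen.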
